A study of Mus musculus with 14 samples.

Results

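The main effect of TAK-418 on the mouse hippocampus was measured by RNA sequencing over both genotypes of a crossed design. All 14 libraries of the series entered it: 8 from mice given TAK-418 and 6 from mice given vehicle, with genotype as an additive term. TAK-418 is an inhibitor of LSD1, the histone demethylase encoded by Kdm1a. Mice of the C57BL6 strain were wild type (KMT2D+/+) or heterozygous for a βGeo gene trap of Kmt2d (KMT2D+/bGeo). TAK-418 was given by gavage in methylcellulose at 1 mg/kg/day for 2 weeks from 2 weeks of age, and the controls had methylcellulose alone. The labels give the age as 30 days. There were 5 wild-type and 3 mutant TAK-418 libraries, and 3 wild-type and 3 mutant vehicle libraries. The series text speaks of 3 to 4 mice in a group, but 5 samples are labelled wild type with TAK-418.

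LSD1 removes methyl groups from lysine 4 of histone H3, the mark of active promoters and enhancers, as part of the CoREST repressor complex. KMT2D writes the same mark at enhancers, and loss of 1 human copy causes Kabuki syndrome, a disorder with intellectual disability. In the hippocampus the dentate gyrus keeps producing granule neurons after birth, and both enzymes act in developing neurons.

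A gene's value was the summed abundance of its assembled transcripts, on the scale of FPKM (fragments per kilobase of transcript, relative to library size), divided by a library factor; it is called the scaled abundance here. Depth was estimated from the spacing of low abundances. Among treated libraries, 7 had 40.8 to 60.01 M fragments, and replicate 1 of the wild types had 168 M. Vehicle libraries had 35.1 to 49.8 M. Single-exon transcripts made up 6.54% to 18.4% of the assembly with TAK-418 and 11.4% to 19.6% with vehicle. Their share differed by -3.49 percentage points (exact two-sided permutation within genotype, p = 0.0723, adjusted p = 0.253 over 7 measures). Genes with a value numbered 15074 to 16760 with TAK-418 and 15015 to 15293 with vehicle. The genotype-adjusted difference in that number was 422 (exact permutation p = 0.0482, adjusted p = 0.253). Assembled transcripts numbered 38446 ± 4785 (SD, n = 8) with TAK-418 and 37460 ± 2051 (SD, n = 6) with vehicle. The genotype-adjusted difference of 1169 had an exact permutation p of 0.688, and without wild-type TAK-418 replicate 1 it was -235. Xist, the RNA of the inactive X chromosome, was listed in 3 TAK-418 and 3 vehicle libraries. Of the markers of mature dentate granule cells and of the CA fields, 11 of 12 and 15 of 17 had a value in every library. The numbers in the titles of treated and vehicle mice do not overlap, so anything that followed those numbers cannot be told apart from the treatment. No label says whether libraries were prepared together, and p-values measure the spread between these libraries.

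The drug's target was listed at nearly the same level in both treatments. Kdm1a (chromosome 4, 136550540 to 136602723, minus strand, GRCm38) had scaled abundances of 33.4 at the lowest, 34.3 at the median and 35.9 at the highest with TAK-418. With vehicle these were 30.0, 33.7 and 35.0. The ranges overlapped, and the additive log2 difference was 0.05 with an exact permutation p of 0.12 (adjusted p = 0.279). Over the fits that left out 1 library this difference ran from 0.03 to 0.07. The highest was without mutant vehicle replicate 2, with an exact permutation p of 0.025. Without the 2 vehicle libraries in which Ttr, a choroid plexus gene, was highest, it was 0.01 (limma unadjusted p = 0.728). Kmt2d (chromosome 15, 98831669 to 98871204, minus strand) ranged from 9.38 to 18.1 with TAK-418 and from 10.7 to 14.5 with vehicle. Its log2 difference was 0.08, with an exact permutation p of 0.503. By genotype it was 14.1 ± 0.235 (SD, n = 3) in wild-type and 11.97 ± 2.15 (SD, n = 3) in mutant vehicle libraries. With TAK-418 it was 15.3 ± 2.38 (SD, n = 5) in wild types and 12.5 ± 2.74 (SD, n = 3) in mutants. A sum over assembled transcripts does not separate the trapped copy from the intact one.

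Kdm1a is spliced into forms that differ by a 60-base exon and by a 12-base neuron-specific micro-exon, both in the coding region. Their reference sequences are shown because they tell the forms of the target apart; capitals mark the exon and lower case 9 bases of each neighbour, 5′ to 3′, from GENCODE M21 transcripts of GRCm38.
60-base exon, chr4:136582040-136582099, minus strand: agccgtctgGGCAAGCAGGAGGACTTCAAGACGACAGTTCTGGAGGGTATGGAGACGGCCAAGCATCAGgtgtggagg
12-base exon, chr4:136563438-136563449, minus strand: ggacaagctGACACTGTCAAGgttccaaaa
In all 14 libraries the assembly held a form with the 60-base exon and a form without it. This comparison was added after the data were seen. The form with the exon took 26.7% to 45.1% of the summed abundance of both forms with TAK-418, with a mean of 34.4% ± 7.51 (SD, n = 8). With vehicle it took 25.8% to 56.4%, with a mean of 38.8% ± 11.9 (SD, n = 6). The genotype-adjusted difference of -3.63 percentage points had an exact permutation p of 0.487, and it was smaller than the SD in either treatment. Leaving out 1 library moved it from -6.62, without mutant vehicle replicate 2, to -0.86, without mutant vehicle replicate 1, and it was -1.41 without mutant TAK-418 replicate 1. It was -5.99 without wild-type vehicle replicate 1. The 12-base exon was in 0 of the assembled Kdm1a transcripts in any of the 14 libraries. It is in 1 of 9 annotated transcripts, and its absence from the assembly does not show that it is unused.

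Few genes differed between the treatments beyond the spread of the libraries. With limma (lmFit and eBayes with trend, Benjamini-Hochberg adjustment) 1 of 16569 genes, 0.00604%, passed an adjusted p of 0.05, and it was higher with TAK-418. None of the 16569 was lower at that threshold (0%), while 592 genes were lower (3.57%) and 807 higher (4.87%) at an unadjusted p under 0.05. Both directions together came to 1399 genes, or 8.44%. The median log2 difference over all genes was 0.00. Ranges of the 8 TAK-418 and 6 vehicle libraries did not overlap for 23 genes that were higher (0.139%) and 10 that were lower (0.0604%).

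The called gene was Pnck (chromosome X, 73655994 to 73660117, minus strand), which encodes a calcium/calmodulin-dependent protein kinase of neurons. Wild-type TAK-418 libraries had 65.9, 58.9, 66.8, 57.2 and 64.8, and mutant TAK-418 libraries 64.6, 66.9 and 61.7. Wild-type vehicle libraries had 52.7, 48.0 and 49.3, and mutant vehicle libraries 45.9, 51.6 and 47.9. Every treated library thus lay above every vehicle library, in both genotypes. Pnck rose 1.28-fold, a log2 difference of 0.36 ± 0.04 (SE; limma adjusted p = 0.0418). Its log2 difference was 0.32 in wild types and 0.40 in mutants, with an unadjusted interaction p of 0.379 in limma. The adjusted p ran from 0.0113 to 0.506 over 30 alternatives and was under 0.05 in 11 of them, 3 of those among the 14 that left out 1 library. The log2 difference ran from 0.31 to 0.42. Without the 2 vehicle libraries in which Ttr, a choroid plexus gene, was highest, the adjusted p was 0.216. With Xist as a covariate 0 genes passed the threshold in limma, and the smallest adjusted p of any gene was 0.117. In the authors' deposited table, which pools each group, Pnck was listed at 49.9 in wild-type vehicle and 46.5 in mutant vehicle mice, and at 61.0 and 63.6 in wild-type and mutant TAK-418 mice. Its q-value in the authors' deposited table was 0.00995 for wild-type TAK-418 against mutant vehicle and 0.25 for mutant TAK-418 against wild-type vehicle.

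**Figure D1:**
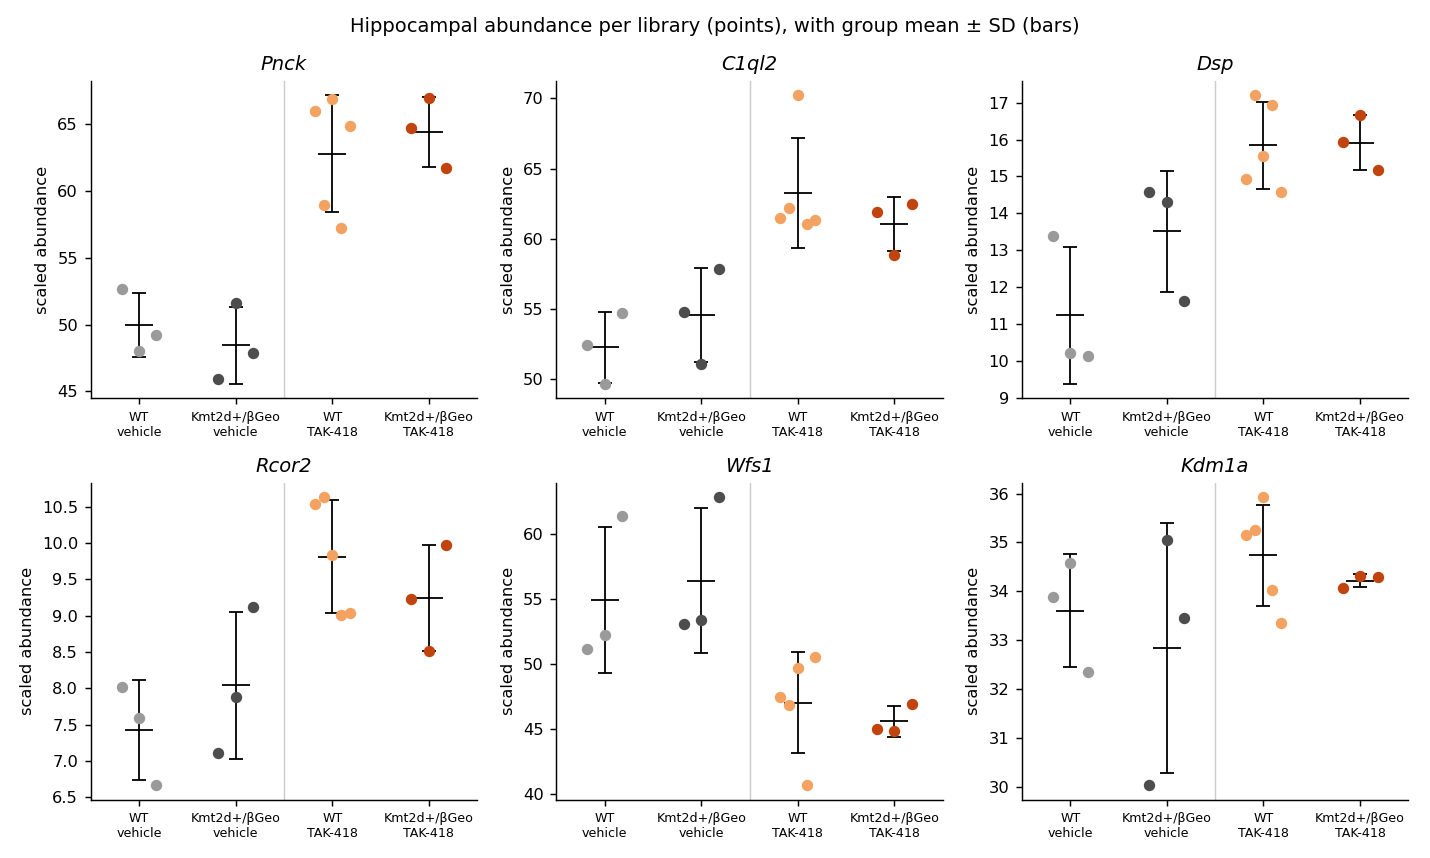
Scaled abundance (vertical axis) of 6 genes in each library, by genotype and treatment; points are libraries and bars the group mean ± SD. All TAK-418 points of Pnck and C1ql2 lie above all vehicle points, those of Wfs1 lie below, and those of Dsp, Rcor2 and Kdm1a overlap.

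The next 9 higher genes by unadjusted p, among those with a value in all libraries, did not pass the threshold. Their adjusted p-values in limma were 0.0834 to 0.247. Pgbd5, a domesticated piggyBac transposase expressed in brain, was listed at 99.8 to 110 with TAK-418 and 88.4 to 96.4 with vehicle, a log2 difference of 0.19 ± 0.03 (SE). Nfia, a transcription factor of neural development, had the largest of these differences, 0.74 ± 0.11 (SE), with 9.66 to 17.3 against 6.98 to 10.9. Only mutant TAK-418 replicate 2 reached into the vehicle range of Nfia, and without it the adjusted p was 0.0122 in limma. C1ql2 is a secreted synaptic organizer of dentate granule cells and their mossy fibers. It was at 58.8, 61.7 and 70.2 (lowest, median, highest) with TAK-418 and at 49.7, 53.6 and 57.9 with vehicle, so its ranges did not overlap. Srrm4, the neuronal splicing factor of micro-exons, was at 11.5 to 14.1 against 9.85 to 11.3. Tnrc18, a chromatin protein with a bromo-adjacent homology domain, was at 17.5 to 20.4 against 13.6 to 17.0, and Arhgap27, a GTPase-activating protein, at 4.73 to 6.87 against 3.59 to 4.42. Sh3bp5, which binds the kinase JNK, was at 30.0 to 33.4 against 26.7 to 29.0. Slc26a10 (7.10 to 11.2 against 5.99 to 7.76) and Baiap3, a Munc13 relative of dense-core vesicle traffic (3.10 to 3.97 against 2.09 to 3.24), overlapped. Of these 10 genes, Pnck included, 7 had ranges that did not overlap, against 0.139% of all genes in this direction. All 10 had the same sign in both genotypes. Their choice by small p in the same libraries favours both, so neither count is a test. When the highest transcript stood for each gene, 2 of the 10 changed sign: Pgbd5 to -0.05 and Tnrc18 to -0.40.

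The 10 lower genes with the smallest p and a value in all libraries were all short of the threshold. Their adjusted p-values in limma were 0.247 to 0.347. Choice by small p favours ranges that do not overlap, which 0.0604% of all genes had in this direction. Wfs1 encodes wolframin, a membrane protein of the endoplasmic reticulum and a marker of CA1 pyramidal cells. Its scaled abundance was 40.6, 46.9 and 50.5 (lowest, median, highest) with TAK-418 and 51.1, 53.2 and 62.8 with vehicle. The ranges did not overlap, and the log2 difference was -0.25 ± 0.06 (SE; limma adjusted p = 0.342). Ranges also did not overlap for Mipep, a mitochondrial peptidase (17.2 to 18.4 against 18.7 to 21.3), and for Bbs9, a subunit of the ciliary BBSome (3.37 to 4.03 against 4.26 to 4.99). The other 7 overlapped. Among them were Ltbp1, which binds latent TGF-β, Thbs2, a matrix glycoprotein, Poldip2, Fgd5, an endothelial exchange factor, Atp5g1, a subunit of ATP synthase, and Ttc16. Their log2 differences ran from -0.62 (Thbs2) to -0.18 (Atp5g1). Poldip2 was at 20.9 to 23.1 in 7 TAK-418 libraries and 32.9 in mutant TAK-418 replicate 3. With vehicle it was at 22.5 in wild-type replicate 2 and 36.6 to 50.6 in the other 5. When abundance was weighted by transcript length, Ltbp1 changed sign to 0.13, Thbs2 to 0.22 and Fgd5 to 0.11.

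The authors' deposited tables were made from the same mice by another route, so they are another measure and no new sample. Averaging their 2 crossed comparisons, each treated group against the vehicle group of the other genotype, cancels the genotype. In the authors' deposited tables the 10 higher genes were all higher with TAK-418, by 0.09 (Nfia) to 0.60 (Baiap3) on the log2 scale, with a median of 0.18 against 0.34 in the libraries. The 10 lower genes had a median of -0.04 in the authors' deposited tables against -0.39 in the libraries, and 2 of them were beyond 0.1 in size. Those were Wfs1 at -0.29 and Fgd5 at -0.13, while 2 of the 10, Thbs2 (0.07) among them, had the other sign in the authors' deposited tables. Poldip2 was at -0.05 there. Over 11149 genes both measures had a Pearson correlation of 0.42 and a Spearman correlation of 0.505, as a description, since genes are not replicates and both rest on the same reads.

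C1ql2 and Wfs1 were the markers of mature dentate granule cells and of the CA fields whose ranges separated. Their log2 differences were 0.22 and -0.25 in the libraries, and 0.22 and -0.29 in the authors' deposited tables. Their promoters are shown because promoters rich in CpG commonly carry H3K4 methylation, which was not analysed here. Each is the 250 bases before the RefSeq start, GRCm38.p6, 5′ to 3′, with CpG pairs in capitals.
C1ql2, chr1:120340332-120340581, plus strand: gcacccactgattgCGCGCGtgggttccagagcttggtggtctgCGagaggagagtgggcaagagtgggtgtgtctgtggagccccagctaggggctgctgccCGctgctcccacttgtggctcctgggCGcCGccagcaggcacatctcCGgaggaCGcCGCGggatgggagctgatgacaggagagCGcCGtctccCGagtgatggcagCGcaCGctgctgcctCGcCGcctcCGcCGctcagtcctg
Wfs1, chr5:36988983-36989232, minus strand: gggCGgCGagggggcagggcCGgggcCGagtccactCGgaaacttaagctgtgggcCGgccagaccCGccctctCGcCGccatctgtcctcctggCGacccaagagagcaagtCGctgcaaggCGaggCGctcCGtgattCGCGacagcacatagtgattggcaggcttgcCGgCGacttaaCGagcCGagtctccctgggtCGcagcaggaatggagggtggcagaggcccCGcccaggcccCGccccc
C1ql2 holds 20 CpG pairs and Wfs1 holds 23, against a median of 6 over 32851 promoters of this length, of which 17.9% and 13.3% held at least as many. Of the 10 higher and 10 lower genes with the smallest p, 18 had a promoter in the table, with 1 to 33 CpG pairs and a median of 16. Genes expressed in many tissues commonly have such promoters.

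The drug effects in the 2 genotypes come from separate libraries, and they were only weakly alike. Over 16569 genes the log2 difference in wild types and that in mutants had a Pearson correlation of 0.146 and a Spearman correlation of 0.152, and 54.9% of genes had the same sign. Leaving out 1 library at a time moved the Pearson correlation between 0.0443, without mutant vehicle replicate 1, and 0.172. Without wild-type vehicle replicate 3 it was 0.07, and without both of these libraries it was 0.0224. These are the 2 libraries in which choroid plexus transcripts were highest. The 10 higher and 10 lower genes of smallest p with a value in all libraries all had the same sign in both genotypes. Their choice by the pooled effect favours this. Among these 20 genes the unadjusted interaction p in limma was under 0.05 for 1, against 734 of 16569 over all genes. That 1 was Ttc16, at -0.87 in wild types and -0.24 in mutants.

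**Figure D2:**
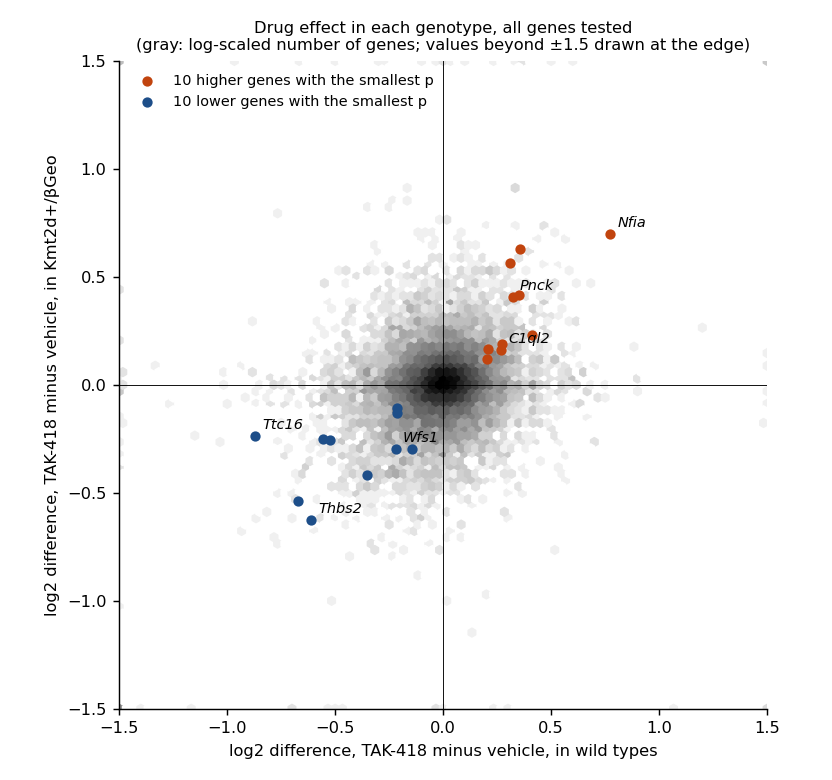
Log2 difference of TAK-418 from vehicle in wild types (horizontal) and in KMT2D+/bGeo mice (vertical) for the 16569 genes tested, in gray by number of genes. Colored are the 10 higher and 10 lower genes of smallest p with a value in all libraries. The cloud is nearly round (Pearson correlation 0.146), and the colored genes lie in the 2 quadrants of equal sign because they were chosen by the pooled effect.

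Genes of the LSD1 complex and of H3K4 methylation were mostly near their vehicle levels. Of the 16 LSD1 and CoREST genes listed, 14 were tested, 0 passed the threshold, and 2 were higher and 0 lower at an unadjusted p under 0.05. Over all genes 4.87% were higher and 3.57% lower at that level. The median log2 difference of the 14 was 0.05. Rcor2, the CoREST paralog of neural progenitors, had the largest difference, 0.28 ± 0.07 (SE; limma adjusted p = 0.347). It was at 8.52, 9.53 and 10.6 (lowest, median, highest) with TAK-418 and 6.66, 7.74 and 9.12 with vehicle, so the ranges overlapped at their edge. In the authors' deposited tables its mean log2 difference was 0.30. Phf21a, the subunit that reads unmethylated H3K4, differed by 0.09 ± 0.04 (SE; limma adjusted p = 0.523), and by -0.05 when abundance was weighted by length. Rcor3, the lowest of the list, differed by -0.10, and Rcor1 by 0.06. Of 17 H3K4 methyltransferase and COMPASS genes, 0 passed the threshold. Wdr5, a core subunit, was the 1 at an unadjusted p under 0.05, with a log2 difference of 0.08 ± 0.03 (SE; limma adjusted p = 0.537). Their median was 0.08. Among those with a value in every library the largest differences were 0.29 for Setd1a, a methyltransferase, and -0.08 for Kdm6a, the demethylase that travels with KMT2D (0.11 with the highest transcript). The other 5 H3K4 demethylase genes had 0 at an unadjusted p under 0.05. Among those with a value in every library the extremes were 0.07 for Kdm5b and -0.03 for Kdm5a. Riox1 and Kdm5d, each listed at 0 in some libraries, differed by 1.08 ± 0.60 (SE) and 0.45 ± 0.87 (SE).

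Of the markers of newborn granule neurons 10 of 14, and of mature granule cells 7 of 12, were above their vehicle levels, against 8260 of 16569 genes. Such shares were not particular to granule cells. LSD1 and CoREST genes (10 of 14) and H3K4 methyltransferase and COMPASS genes (13 of 17) had at least the share of the newborn markers. The gene lists were chosen with earlier results of these data known, so their counts are a description and no test. In the 14 markers of newborn granule neurons 0 passed the threshold. At an unadjusted p under 0.05, 6 were higher and 0 lower, against 4.87% and 3.57% over all genes. The list's median log2 difference was 0.11, with 0.17 in wild types and 0.06 in mutants. Calb2, which encodes calretinin of immature granule cells, was at 37.9, 41.8 and 47.9 (lowest, median, highest) with TAK-418 and at 28.2, 36.1 and 37.6 with vehicle. These ranges did not overlap, and the log2 difference was 0.27 ± 0.07 (SE; limma adjusted p = 0.347). Calb2 also marks cells of the thalamus and habenula. Dcx, the doublecortin of migrating neurons, was at 5.80 to 7.45 against 4.84 to 6.41, a difference of 0.20 ± 0.08 (SE; limma adjusted p = 0.516). The other 4 were Igfbpl1 (0.34), Dpysl3 (0.29), a regulator of axon growth, and the transcription factors Neurod2 (0.13) and Prox1 (0.21). Igfbpl1 differed by 0.57 in wild types and 0.04 in mutants, with an unadjusted interaction p of 0.0294 in limma. Dpysl3 differed by 0.44 and 0.10, with an unadjusted interaction p of 0.0338. Stmn1 had the most negative difference among those with a value in every library, -0.05.

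Of 12 markers of mature granule cells, 0 passed the threshold. At an unadjusted p under 0.05, 4 were higher and 0 lower, against 4.87% and 3.57% over all genes. Prox1, the factor that sets granule cell identity, counts in both lists and was at 33.7 to 43.5 with TAK-418 and 30.2 to 36.3 with vehicle. Dsp, which encodes desmoplakin, was at 14.6, 15.7 and 17.2 (lowest, median, highest) against 10.1, 12.5 and 14.6. Only the top of the vehicle range met the bottom of the treated range, and the log2 difference was 0.36 ± 0.08 (SE; limma adjusted p = 0.248). In the authors' deposited table Dsp had a q-value of 0.0185 for mutant TAK-418 against wild-type vehicle and 0.487 for wild-type TAK-418 against mutant vehicle. Tdo2, a tryptophan-degrading enzyme made by granule cells, differed by 0.23 ± 0.06 (SE). Dgkh had the most negative difference among those with a value in every library, -0.24, and was at 0.05 without the 2 vehicle libraries of highest Ttr. The median over the 12 was 0.04. Adding the list's members per library gave 325 to 350 with TAK-418 and 294 to 338 with vehicle, so the summed level overlapped.

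Markers of the CA fields differed in both directions. Of 17, 0 passed the threshold, with a median of 0.03. At an unadjusted p under 0.05, 2 were higher and 2 lower, against 4.87% and 3.57% over all genes. Wfs1 was among the lower. Higher were Bok (0.12) and Cpne4 (0.10). The extremes by size among those with a value in every library were Pou3f1 (0.38) and Map3k15 (-0.26). Pou3f1 was at 24.4 in mutant TAK-418 replicate 3 and 1.02 to 2.05 in the other 13, and without that library its difference was -0.16. In tissue of mixed cells, fewer cells of a type and less RNA per cell cannot be told apart. How much of the dentate gyrus or of CA1 each dissection held was not measured, and its part in these differences was not tested.

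**Figure D3:**
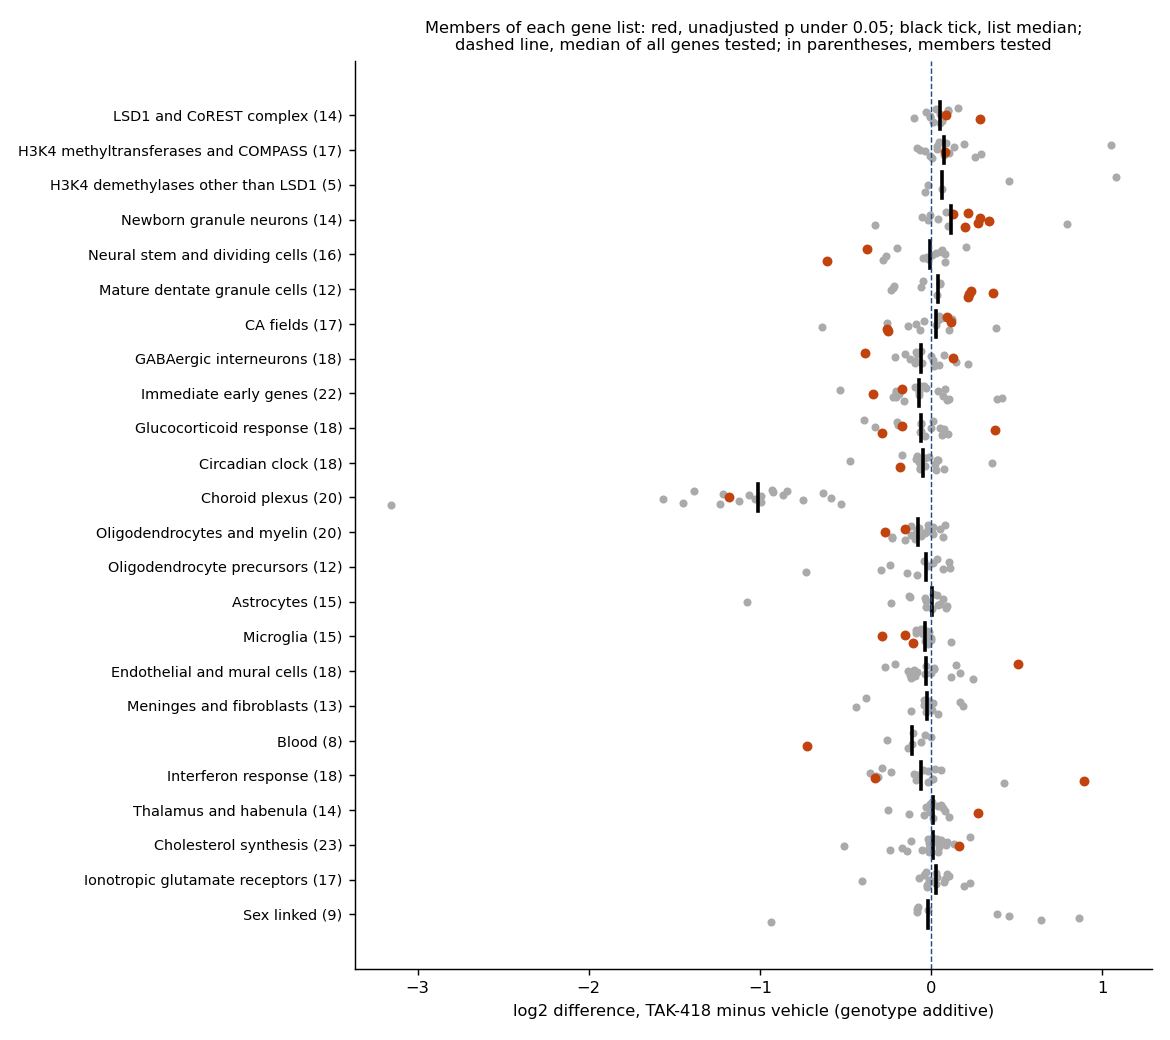
Log2 difference of TAK-418 from vehicle (horizontal) for each tested member of 24 gene lists; red points have an unadjusted p under 0.05, black ticks are list medians and the dashed line is the median of all genes tested. The choroid plexus list, with a median of -1.01, is displaced to the left, and the granule neuron lists hold red points to the right only.

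Dividing cells and activity genes gave few differences. For comparison, 4.87% of all genes were higher and 3.57% lower at an unadjusted p under 0.05. Of 16 markers of neural stem and dividing cells, 0 were higher and 2 lower at an unadjusted p under 0.05: Top2a, a topoisomerase of dividing cells (-0.61), and the kinase Cdk1 (-0.37). Both were positive when abundance was weighted by length, at 0.19 and 0.12. Birc5 was the highest with a value in every library, at 0.21, and the list's median was -0.01. Of 22 immediate early genes tested, 0 were higher and 2 lower, Npas4 (-0.34) and Dusp6 (-0.17), both induced by neuronal activity. Their median was -0.07, with -0.22 in wild types and 0.08 in mutants. Fosl2, the highest with a value in every library, was at 0.10. Of 18 glucocorticoid-responsive genes, Zbtb16 (0.37) was higher, and Sgk1 (-0.29) and Pdk4 (-0.17) were lower at an unadjusted p under 0.05. Map3k6 was the lowest with a value in every library, at -0.39. Of 18 clock genes, Per2 (-0.18) was lower. Nr1d1 had the highest difference, 0.36, over ranges of 32.1 to 113 and 27.5 to 96.6. No member of these 4 lists passed the adjusted threshold in limma.

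Glial and blood markers had medians near 0 or slightly below. The counts that follow stand beside 4.87% of all genes higher and 3.57% lower at an unadjusted p under 0.05. Myelin genes had a median of -0.08 over 20, with 0 higher and 2 lower at an unadjusted p under 0.05. Ugt8a, an enzyme of myelin lipid synthesis, had the most negative difference (-0.27, but 0.10 with abundance weighted by length) and Fa2h the most positive (0.08), while Mbp was at -0.15. Microglial genes had a median of -0.04 over 15, with 0 higher and 3 lower, among them Aif1 (-0.29, but 0.04 with abundance weighted by length) and P2ry12 (-0.10). Tmem119 was the highest, at 0.11. In 18 interneuron genes the receptor Erbb4 (-0.38) was lower and Lhx6 (0.13) higher, with a median of -0.06 and Slc32a1, the GABA transporter of vesicles, the highest at 0.21. Of 10 blood genes 8 were tested, all 8 were below 0 with a median of -0.11, and 0 were higher and 1 lower at an unadjusted p under 0.05. That was the hemoglobin gene Hba-a2, at -0.73 ± 0.27 (SE; limma adjusted p = 0.513). Hba-a1, its near-identical copy, differed by -0.14 ± 0.23 (SE), and how the authors split reads between them is not given in the sources used here. The remaining 9 lists had medians of -0.06 to 0.03, with 4 members higher and 1 lower of 139 at an unadjusted p under 0.05. They were oligodendrocyte precursors, astrocytes, endothelial and mural cells, meninges and fibroblasts, interferon response, thalamus and habenula, cholesterol synthesis, ionotropic glutamate receptors and sex-linked genes.

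Among the lists, the largest median difference was that of the choroid plexus, the secretory epithelium that lies against the hippocampus in the ventricles. All 20 members tested of 22 were below their vehicle levels, with a median log2 difference of -1.01. In limma, 0 passed the threshold and 1, Sostdc1 (-1.18), had an unadjusted p under 0.05, against 8.44% of all genes. Ttr, transthyretin, was at 4927 in mutant vehicle replicate 1 and 6396 in wild-type vehicle replicate 3. Mutant vehicle replicate 3 had 888, mutant TAK-418 replicate 1 had 592, and the other 10 libraries had 6.51 to 36.4. Libraries of both treatments thus shared the low range, and the log2 difference was -3.15 ± 1.46 (SE; limma adjusted p = 0.591). The 2 highest values of each of the 21 members with a value lay in those same 2 vehicle libraries, 1 of each genotype. Without these 2 libraries the list's median was -0.07, Ttr was at -0.97 with a limma unadjusted p of 0.404, and Kl, at -0.53 with all libraries, was at 0.24. Because the 2 are vehicle libraries with the highest values, the direction of this change was set in advance. Summed over the list, the level was 95.5 to 752 with TAK-418 and 111 to 7373 with vehicle.

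**Figure D4:**
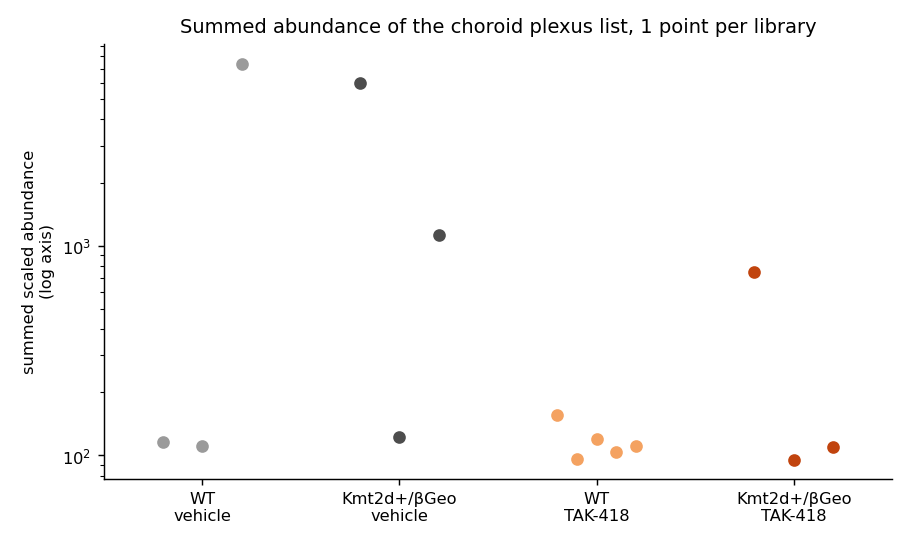
Summed scaled abundance of the choroid plexus list (vertical, log axis) in each library, by genotype and treatment, 1 point per library. The 2 vehicle libraries near 5990 and 7373 stand above all others, 1 more vehicle library is at 1130, and the other 3 lie within the TAK-418 range of 95.5 to 752.

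Most loci called lower in both crossed tables of the authors were highest in those 2 libraries. The crossed tables share no group. At a q-value under 0.05 the authors' deposited table of wild-type TAK-418 against mutant vehicle held 197 loci (0.611% of those tested) and that of mutant TAK-418 against wild-type vehicle held 110 (0.324%). Of 63 loci in both, 41 (0.144% of 28406 tested in both) had the same drug direction, 2 higher and 39 lower with TAK-418, which is 20.8% of the first list and 37.3% of the second. The other 22 had opposite drug directions. Leaving out loci with the name of a small RNA, microRNA or clone, the authors' deposited tables shared 37 loci. Of these 34 had the same drug direction, 0 higher and 34 lower (28.6% and 72.3% of the lists), and 3 had opposite directions. Lower with TAK-418 in the authors' deposited tables were 140 loci (0.434%) of the first and 66 (0.194%) of the second, and higher 57 (0.177%) and 44 (0.129%). Among the 39 lower loci, 16 held a member of the choroid plexus list. In the authors' deposited tables the largest mean log2 differences among them were -5.34 for Ttr, -4.61 for Tmem72, -4.50 for Slc4a5, -4.33 for Kcne2, -4.08 for Prr32 and -3.98 for Clic6. Slc4a5, Kcne2 and Clic6 encode a bicarbonate transporter, a potassium channel subunit and a chloride channel protein of that epithelium.

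In the assembled libraries 37 of the 39 lower loci could be matched to a gene, and for 36 of them the 2 highest values lay in the 2 vehicle libraries with the highest Ttr. The 1 other was Msx1. Kcne2, for example, was at 19.2 and 17.4 in those 2, at 3.38 in mutant vehicle replicate 3 and at 1.62 in mutant TAK-418 replicate 1, and was listed at 0.112 or 0 in the rest. Over 33 of these genes that could be fitted with and without them, the median log2 difference was -0.68 with all libraries and -0.03 without the 2. At an unadjusted p under 0.05, 4 were called with all libraries and 1 without, against 1399 of 16569 and 1117 of 16445 genes. Genes outside the list did the same: Ppp1r1b, the DARPP-32 phosphatase inhibitor, was at 44.2 and 41.4 in those 2 libraries and 19.6 to 27.5 in the other 12. Its log2 difference was -0.32 with all libraries and -0.03 without the 2. Leaving out the vehicle libraries with the highest values raises such a difference by itself, so the direction of these changes was set in advance. The tables pool each group, and each vehicle group holds 1 of these libraries, so the crossed tables are not independent of them.

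Both loci higher in the 2 tables lacked such a difference in the assembly. A locus joining the noncoding RNA Rmst, the microRNA gene Mir135a-2 and predicted genes was listed at 5.42 and 5.82 in wild-type and mutant vehicle and at 21.7 and 22.5 in wild-type and mutant TAK-418 mice in the authors' deposited tables. Assembled Rmst was at 0.675 to 2.23 with TAK-418 and 1.38 to 2.94 with vehicle, a log2 difference of -0.28 ± 0.16 (SE), or 0.32 with abundance weighted by length. A locus of Bsn, the presynaptic scaffold bassoon, and Gm47303 had a mean log2 difference of 0.89 in the authors' deposited tables, and Bsn one of 0.13 ± 0.12 (SE) in the assembly. Over the 27923 loci with finite values the drug directions of both tables had a Pearson correlation of 0.0923, and 53.1% had the same sign.

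**Figure D5:**
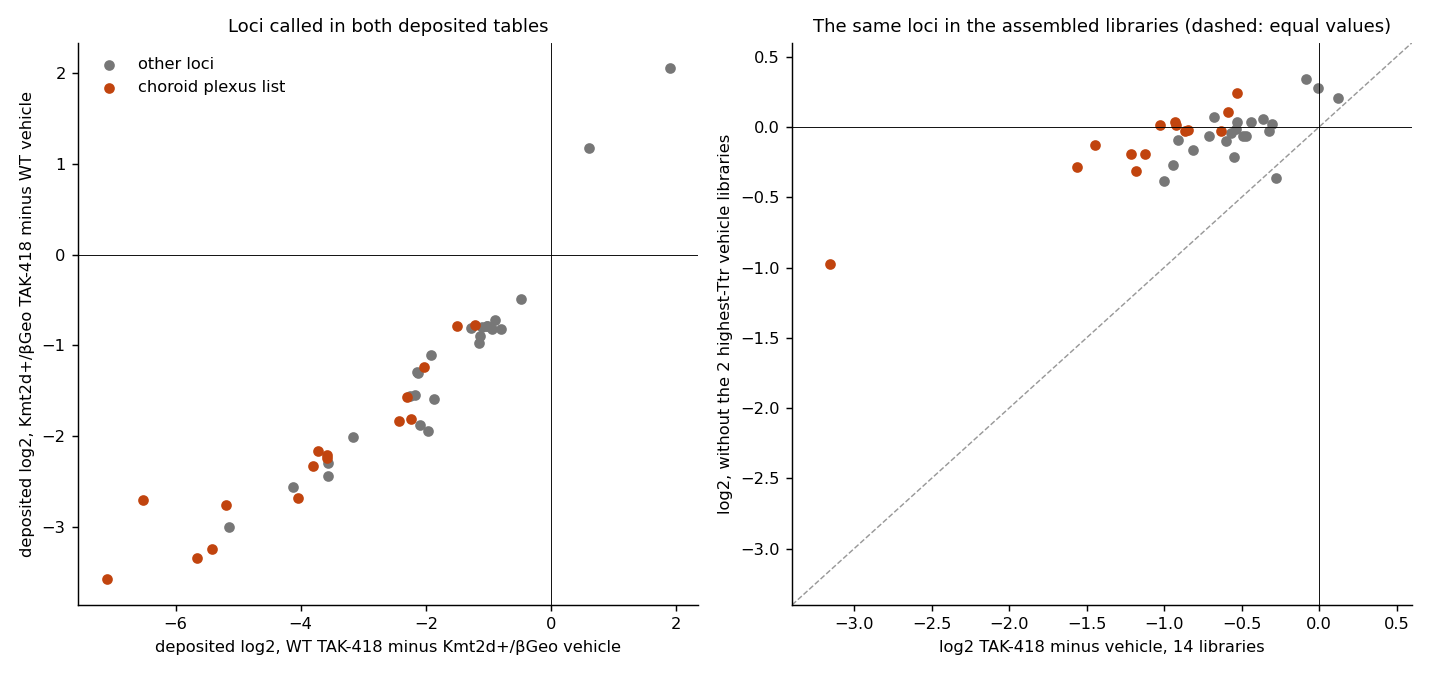
Left, the authors' deposited log2 differences of TAK-418 from vehicle in the 2 crossed tables for the 41 loci called in both in 1 drug direction, with choroid plexus list members in red. Right, the log2 difference of the matched genes in the assembled libraries with all 14 libraries (horizontal) and without the 2 vehicle libraries of highest Ttr (vertical); of 33 genes of lower loci fitted both ways, 33 are negative with all libraries and 21 without the 2.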

How the data were processed

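RNA sequencing libraries of hippocampus from 14 mice were used, grouped by the labels. TopHat2 2.1.0, FastQC and the build mm10 are named, without their roles, per the submitters' processing notes. Per the file headers, CLASS 2.1.7 produced the transcript assemblies that the authors deposited. Each deposited transcript carries an abundance score on an FPKM scale; the scale was worked out from the values. The authors' deposited comparison tables hold, per the file headers, a pooled value per group, taken as FPKM, a log2 fold change, and a p-value and q-value. For all 4 tables the group order was checked against the libraries.

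Transcripts were assigned to GENCODE M21 genes by shared introns, or for single exons by at least 50% exon overlap, and summed per gene. An exact 0 means that nothing was assembled. The sources do not say how reads of shared sequence were split, so overlapping genes and near-identical copies are uncertain. A median-of-ratios factor for each library came from 13273 genes valued in all 14. Of 18722 genes with a value, the fit took the 16569 that had one in 3 or more libraries, as log2(value + 0.9); the pseudocount is the 10th percentile of values above 0. Fold changes are on that scale and understate low genes. limma 3.58.1 in R 4.3.3 fitted treatment and genotype additively, with a Benjamini-Hochberg threshold of 0.05; it was tested on simulated data. Single values per library were tested by exact two-sided permutation of treatment within genotype (1120 assignments). Other steps ran in Python 3.11.15 with pandas 2.3.3 and numpy 2.4.6, and figures in matplotlib 3.10.9.

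The contrast, the gene lists and their members were chosen with earlier results of these data known. The genes named are Kdm1a, Kmt2d, Ttr, Mbp, Hba-a1 and Dcx, the 10 higher and 10 lower genes of smallest p with a value in all libraries, the extremes by size of each list, and the 6 lower and 2 higher loci of the deposited tables. List extremes are not named for the 9 lists given by counts, nor for blood, and some genes that the rule takes are not reported here. All other genes, such as Calb2, Hba-a2, Tdo2, Prox1, Phf21a, Wdr5, Sostdc1, Ppp1r1b, Msx1 and Pcdhb13, and the Kdm1a exon share were chosen after their values were seen. Alternatives varied the pseudocount, filter, scaling, transcript summing, model, covariates and libraries.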

Additional observations from a re-analysis of the deposited data

Results flagged for a closer look

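In each treatment arm the highest and lowest library was compared with the rest by Dixon's ratio. Chance flags about 1 in 20 arms, and 25 values stood apart over 164 arms screened. Wild-type TAK-418 replicate 1 had a relative depth of 168 M fragments and 16760 genes with a value. Wild-type vehicle replicate 3 had 11.4% single-exon transcripts. The mitochondrial share of abundance was 4.22% in wild-type TAK-418 replicate 2 and 4.55% in wild-type vehicle replicate 1.

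Mutant TAK-418 replicate 1 stood above the treated libraries in choroid plexus genes: Ttr at 592, Slc4a5 at 0.756, Kcne2 at 1.62 and Clic6 at 2.56. Mutant TAK-418 replicate 3 stood apart in Poldip2 (32.9), Fgd5 (2.41), Dgkh (42.2) and Pou3f1 (24.4). Mutant TAK-418 replicate 2 did so in Nfia (9.66) and Thbs2 (2.98). Wild-type TAK-418 replicate 3 did so in C1ql2 (70.2), Kdm5a (7.30), Fosl2 (2.54) and Ppp1r1b (27.5), and replicate 1 in Pdk4 (3.84) and Per2 (14.1). Among vehicle libraries, mutant replicate 1 stood apart in Slc32a1 (10.6) and Lhx6 (8.41), mutant replicate 2 in Bbs9 (4.99) and wild-type replicate 2 in Calb2 (28.2).

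The interaction called 1 gene in limma, Pcdhb13, a clustered protocadherin. Its drug effect in mutants minus that in wild types was 1.60 on the log2 scale (limma adjusted p = 0.00192). Pcdhb13 was listed at 2.29, 1.71 and 1.53 in the 3 mutant TAK-418 libraries and at 0 in the other 11. The fit took genes with a value in 3 or more libraries, so it entered only through the group where it was high. For that reason the adjusted p of Pcdhb13 is not a test of an interaction. In the authors' deposited tables its joint locus with Pcdhb14 was at 3.76 in mutant TAK-418 mice and 3.60 to 4.01 in the other 3 groups.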

How the results depend on the processing

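Of 2271 gene values over 30 alternatives, 2215 kept their direction and side of the threshold, 34 changed sign, 19 lost and 3 gained the threshold. The 19 were all Pnck, which kept its call in 11 of 30. Among these 76 genes Pnck alone was past the threshold with all libraries, so the other genes had no call to lose. The number of genes called in limma, 1 with all libraries, was 0 without scaling, with the highest transcript, with library quality weights, and with Xist, transcript number or single-exon share as a covariate. It was 2 with upper quartile scaling (Pnck, Pgbd5), 4 group means (Pnck, Pcdhb13), relative depth as a covariate or an adjusted p of 0.1, and 4 with abundance weighted by length. Leaving out 1 library gave 0 to 3; the gene called without mutant vehicle replicate 1 and without both libraries of highest Ttr was Gm8108, not Pnck. The call of Pcdhb13 with 4 group means rests on a gene that entered the fit only through the mutant TAK-418 libraries. The depth and single-exon covariates were chosen after seeing the data. Leaving out 1 library gave 0.0282 to 0.0705 for Kdm1a, with 0.0705 (exact permutation p = 0.025) without mutant vehicle replicate 2, and -235 to 1744 for assembled transcripts. The correlation between genotypes was 0.188 over genes with a value in all libraries, 0.0224 without the libraries of highest Ttr, and 0.0443 to 0.172 leaving out 1 library (0.0936 without mutant TAK-418 replicate 2). At a q-value of 0.01 the crossed tables shared 0 loci, which says nothing of their overlap, because 1 of them held 0 loci at that threshold. The cause of these differences was not tested.

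Signs changed with abundance weighted by length for Rmst (0.32), Ugt8a (0.10), Ltbp1 (0.13), Thbs2 (0.22), Fgd5 (0.11), Map3k6 (0.30), Dgkh (0.0102), Rcor3 (0.0612), Cdk1 (0.12), Phf21a (-0.0544), Birc5 (-0.00927), Aif1 (0.0355) and Top2a (0.19). They changed with the highest transcript for Per2 (0.13), Pgbd5 (-0.0550), Tnrc18 (-0.40), Kdm6a (0.11) and Kdm5a (0.0143), and with multi-exon transcripts for Birc5 (-0.0563), Dgkh (0.37) and Rcor3 (0.00479). With relative depth as a covariate they changed for Rcor3 (0.00742), Map3k15 (0.0395) and Fosl2 (-0.0671), and with single-exon share for Kmt2d (-0.00245) and Fosl2 (-0.11). Over the fits without 1 library Pou3f1 ran from -0.16 to 0.56, Slc32a1 from -0.00360 to 0.29, Kdm6a from -0.169 to 0.000718, Fosl2 from -0.0880 to 0.33 and Fa2h from -0.0419 to 0.16. Leaving out both libraries of highest Ttr changed Dgkh (0.0497), Kl (0.24) and Kdm6a (0.0481). No paired analysis was possible because the labels give the groups no shared replicate numbers: the numbers used here follow the order of the samples and only name them. The depth limits genes of low abundance, whose values rest on few fragments.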

Other observations

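Ranges of the 8 TAK-418 and 6 vehicle libraries also did not overlap for genes that the rule did not name. Among those higher with TAK-418 were the histone deacetylase Hdac4, the catalytic protein kinase A subunit Prkaca, the neurturin receptor Gfra2, the amino acid transporter Slc7a5 and the tryptophanyl-tRNA synthetase Wars. Among those lower were the ribosomal protein Rpl28, the neuropeptide neuromedin B (Nmb), the lysosomal ceramidase Asah1 and the junctophilin Jph1. They were chosen after their values were seen, and none passed the adjusted threshold in limma.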
